A study of Mus musculus with 282 samples.

Results

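The genes described here are 39 components of the protein-folding machinery of the endoplasmic reticulum (ER), chosen by symbol from their textbook roles. They were chosen with earlier results of these data known, out of 15907 genes in the table of 13 arms and 15900 in the tunicamycin table. Levels are in reads per M reads (RPM, M being 10 to the power of 6), and a gene was tested in a table where its mean was 1 RPM or more. That held for 38 of the 39 in the table of 13 arms; Derl3 fell short there and is described by its levels. All 39 were tested in the tunicamycin table. The members are chaperones (Hspa5, Hsp90b1, Hspa13, Hyou1, Calr, Canx), their cochaperones and luminal partners (Dnajb9, Dnajb11, Dnajc3, Sdf2l1, Creld2, Manf), protein disulfide isomerases (Pdia3, Pdia4, Pdia6, P4hb, Txndc5, Txndc11), factors of ER-associated degradation and folding quality control (Herpud1, Sel1l, Syvn1, Derl1, Derl2, Derl3, Edem1, Os9, Uggt1), stress sensors and a transcription factor (Ern1, Atf6, Eif2ak3, Xbp1), the protein translocation channel and signal sequence receptor (Sec61a1, Sec61b, Sec63, Ssr1, Ssr2, Ssr3) and the COPII coat (Sec23b, Sec24d).

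The livers came from male C57BL/6J mice kept in single cages under 12 h of light and 12 h of dark, and RNA was taken from the lateral lobe. The 282 libraries formed 16 arms. Whole-body Bmal1 knockouts (BMKO) and wild types (WT), all fed only at night (NF), were given rapamycin, its vehicle or no injection. Liver knockouts of Tsc1 (TSKO), a brake on the kinase complex mTORC1, and of Raptor (RPKO), a subunit that mTORC1 needs, were set against Albumin-Cre (AC) mice, which carry the hepatocyte-driven Cre alone; all were night fed and uninjected. WT mice fed arrhythmically (AF) or ad libitum (LB) were set against night-fed WT, all uninjected. Further AF mice received the mTOR kinase inhibitor AZD8055 at dawn or at dusk, and were set against uninjected AF mice, so the drug and the injection cannot be told apart. These 13 arms had 3 libraries at each of zeitgeber time (ZT, hours from lights on) 2, 6, 10, 14, 18 and 22. Tunicamycin, an inhibitor of N-glycosylation that provokes ER stress, was given to AF mice that also had AZD8055 at dusk, to AF mice and to NF mice, with 4 libraries at each of ZT 4, 10, 16 and 22. Several comparisons share a control arm: uninjected night-fed WT, uninjected AF and AC mice each serve more than 1 of them. The labels name the libraries of a group biological replicates, so the p-values measure the spread between mice as labelled. In whole liver, fewer cells of a type and less RNA per cell cannot be told apart.

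Proteins that enter the secretory pathway fold in the ER, where chaperones hold them and disulfide isomerases join their cysteines; those that fail are passed back to the cytosol and degraded. When folding load exceeds capacity, the sensors IRE1 (Ern1), ATF6 and PERK (Eif2ak3) start the unfolded protein response. ATF6 and the spliced form of XBP1 then raise the transcription of chaperones and degradation factors. The liver secretes most plasma proteins and is rich in this machinery.

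ATF6 and XBP1 are known to act through short promoter elements, and the elements found in the members' promoters are shown because Hspa5, Creld2, Hsp90b1, Syvn1, Derl3 and Herpud1, on which the results below turn, hold them. RefSeq promoters of GRCm38.p6, from 250 bases before to 50 after each start, were found for 32 of the 39 members; Hspa13, Hyou1, Manf, Derl1, Atf6, Sec61a1 and Ssr2 had none in the table used. The ER stress element, CCAAT and CCACG with 9 bases of any kind between them, searched on both strands, lay in the promoters of 9 of the 32 (28.1%), against 37 of 27025 genes in all (0.137%). The 9 were Calr, Canx, Creld2, Derl3, Dnajc3, Hsp90b1, Hspa5, Pdia6 and Syvn1. The related element, ATTGG and CCACG with 1 base of any kind between them, lay in those of Herpud1 and Dnajb11 (6.25%, against 0.0444% of all genes). The letters TGACGTGG, the core of the element bound by XBP1, lay in those of Sec24d, Txndc11 and Txndc5 (9.38%, against 0.714%). The promoters of Sdf2l1 and Xbp1, also named in each comparison below, held none of these elements. A match describes the letters of a promoter and does not show that a factor binds there. In the stretches below, written in the direction of the gene, capitals mark the element; where it was matched on the other strand its complement is in capitals.
Hspa5, chr2:34772015-34772053, plus strand: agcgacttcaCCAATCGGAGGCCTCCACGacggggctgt
Creld2, chr15:88819510-88819548, plus strand, matched on the other strand: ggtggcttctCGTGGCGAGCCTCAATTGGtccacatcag
Hsp90b1, chr10:86705628-86705666, minus strand, first match: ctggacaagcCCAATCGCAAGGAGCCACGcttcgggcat
Hsp90b1, chr10:86705523-86705561, minus strand, second match, on the other strand: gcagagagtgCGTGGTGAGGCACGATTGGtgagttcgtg
Syvn1, chr19:6046522-6046560, plus strand: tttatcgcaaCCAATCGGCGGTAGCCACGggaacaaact
Derl3, chr10:75893232-75893270, plus strand, matched on the other strand: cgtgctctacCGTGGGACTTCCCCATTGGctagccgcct
Herpud1, related element, chr8:94386367-94386397, plus strand: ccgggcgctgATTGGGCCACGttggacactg
The element begins 65 bases before the start of Hspa5, 126 before that of Creld2, 44 before that of Syvn1, 156 before that of Derl3 and 52 before that of Herpud1. Hsp90b1 has 2, which begin 212 and 107 bases before its start.

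Depth was 0.706 to 14.3 M reads per library in the table of 13 arms (median 8.51) and 4.85 to 10.1 M reads in the tunicamycin table (median 7.71). Some libraries stood apart. The NF tunicamycin library of ZT 16 replicate 2 lay below the other 3 of its group for 37 of 39 members (94.9%), with a median ratio of 0.529, against 36.3% of all genes; results of that table are given with and without it where it changes a count. In ad libitum mice, ZT 10 replicate 3 and ZT 14 replicate 3 resembled each other's time point in clock genes: Dbp had 53.6 RPM in replicate 3 against 122 and 131 at ZT 10, and 112 against 25.8 and 38.2 at ZT 14. Leaving both out changed no call of the ad libitum results. Syvn1 fell under 0.25 times the median of the rest of its group in 15 of 282 libraries, 5 of them BMKO with rapamycin. The targeted genes, read at their 3' ends, averaged 7.24 RPM in TSKO and 14.6 in AC livers for Tsc1, 5.09 in RPKO and 8.89 in AC livers for Rptor, and 10.4 in BMKO and 13.02 in WT livers for Arntl, which encodes Bmal1. Reads from a 3' end that the deletion spares cannot tell whether the gene was lost.

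Hspa5, which encodes BiP, the main chaperone of the ER lumen, was the member with the highest read level in 15 of 16 arms. Its arm mean was 10820 RPM in AF mice with tunicamycin, 10541 in those that also had AZD8055 at dusk and 9952 in NF mice with tunicamycin. Next came AZD8055 at dawn with 1329 RPM and at dusk with 1213. The other 11 arms lay between 1140 RPM, in BMKO mice with vehicle, and 607, in uninjected BMKO mice. In those mice Calr, a lectin chaperone, had the highest level, at 676 RPM. These are read levels from 3' ends, which do not scale with transcript length. The lowest member of the first table was Derl3, a retrotranslocation factor, with 0.394 RPM in night-fed WT and 2.99 RPM after AZD8055 at dawn; under tunicamycin the lowest was Eif2ak3, at 22.96 to 24.97 RPM. Summed over the 39 members, the level was 25709 to 27858 RPM in the 3 tunicamycin arms, 7191 RPM after AZD8055 at dawn, 6793 RPM after AZD8055 at dusk and 4774 to 5638 RPM in the other arms. The sum stood highest in the tunicamycin arms, then in the AZD8055 arms, with no overlap of arm means between these 3 sets; the tunicamycin table was normalized separately.

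In uninjected night-fed WT livers most rhythmic members peaked late in the dark phase. Hspa5 had 1226, 1100 and 1321 RPM at ZT 18 and 580, 476 and 476 RPM at ZT 6, so every night value stood above every morning one. Creld2, a luminal partner of disulfide isomerases, had 18.9, 23.1 and 34.6 RPM at ZT 18 and 6.72, 5.77 and 6.16 RPM at ZT 10. Herpud1, a membrane scaffold of the degradation complex, was highest before night: it had 364, 429 and 301 RPM at ZT 10 and 82.6, 132 and 112 RPM at ZT 22. By a 24 h cosine fitted to the arm, 20 of 38 members were rhythmic, against 21.8% of all genes (limma adjusted p under 0.05). Without any 1 replicate number the count was 11 to 13. The amplitude of Hspa5, from mean to peak on the log2 scale, was 0.62 ± 0.06 (SE, n = 18 libraries; limma adjusted p = 7.79e-07); the peak fell at ZT 18.25, and the fitted peak was 2.37 times its trough. Of the 20, 17 peaked between ZT 18 and 24, 2 between ZT 12 and 18, and 1, Herpud1, before ZT 12. Peak times were not counted over all rhythmic genes, so this does not show a timing particular to the members.

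Peak times are given as means over those of the 7 night-fed arms without a drug in which a member was rhythmic (WT uninjected and with vehicle, BMKO uninjected and with vehicle, AC, TSKO and RPKO). The order of neighbours in these means changed between arms and was not tested. Herpud1 was rhythmic in all 7 and had the earliest mean, a peak at ZT 12.36 (range 10.64 to 13.94) and amplitudes of 0.71 to 1.10. Txndc11, a disulfide isomerase of the degradation pathway, had a mean peak at ZT 15.91 in the 4 arms where it was rhythmic, and Dnajb9, a J-domain cochaperone of BiP, at ZT 15.97 in 6. Creld2 peaked at ZT 18.72, the COPII subunit Sec23b at ZT 19.07 and Hspa5 at ZT 19.56, each rhythmic in all 7 arms. Manf, a secreted BiP-binding protein, peaked at ZT 20.31, Hyou1, the exchange factor of BiP, at ZT 20.5, and the J-domain cochaperone Dnajb11 at ZT 20.97, also in all 7. Sdf2l1, the partner of Dnajb11, reached its peak at ZT 22 with amplitudes of 0.67 to 1.21. The signal sequence receptor subunit Ssr1 peaked at ZT 22.24 and the disulfide isomerase Pdia6 at ZT 23.12 in all 7 arms, Calr at ZT 23.01 in 6, and Pdia4 at ZT 23.85 in 3. Creld2 had the highest amplitudes, from 0.92 to 1.64, and Hspa5 ranged from 0.47 to 0.88. P4hb, Txndc5, Derl1, Os9, Xbp1, Sec61a1, Sec61b and Sec63 were called rhythmic in none of the 7 arms by limma.

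**Figure D1:**
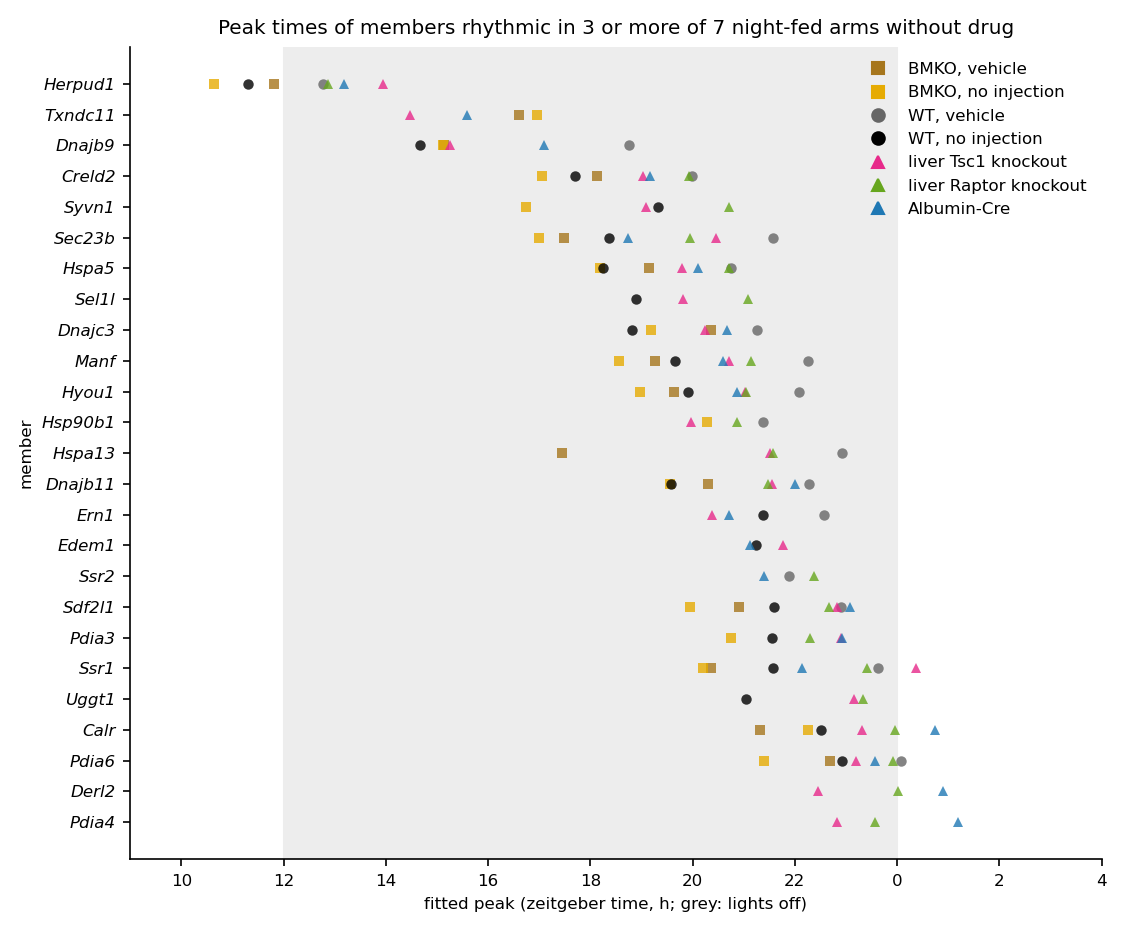
Fitted peak time (zeitgeber time in hours, horizontal axis) of each member called rhythmic in at least 3 of the 7 night-fed arms without a drug, 1 marker per arm in which it was called. Herpud1 stands at the top, near ZT 12, Creld2 and Hspa5 lie near ZT 19, and Pdia4 at the bottom lies near ZT 24.

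Arrhythmic feeding went with a changed rhythm of 19 of 38 members, among them Hspa5 and all 6 cochaperones and partners, while daily means moved in both directions. Under arrhythmic feeding 4 of 38 members were rhythmic (7.96% of all genes) and under ad libitum feeding 12 (16.6% of all genes); without any 1 replicate number the AF count was 1 to 3 and the LB count 1 to 11, and the joint fit of 13 arms gave an LB count of 4. Hspa5 in AF livers had 781, 569 and 627 RPM at ZT 18 and 740, 1029 and 857 RPM at ZT 6. The order of these times was thus turned round from that in night-fed livers, with 1 night value above the lowest morning one. The rhythm differed between AF and NF for 4.61% of all genes. Of the 19 members, 16 had a lower amplitude under AF (4.3% of all genes in that direction) and 3 a higher one (Hsp90b1, Txndc11 and Sec61a1). The count was 11 without replicate 3, 1 without replicate 2 and 17 without replicate 1, and 10 when all 13 arms were fitted jointly. All 6 cochaperones and partners were among the 16.

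For Hspa5 the amplitude was 0.17 in AF and 0.62 in NF livers (limma adjusted p = 1.53e-05 for the difference in rhythm). For Creld2 it was 0.14 in AF and 0.97 in NF livers (adjusted p = 0.00137), for Manf 0.26 and 0.82 (0.00152) and for Sdf2l1 0.16 and 0.85 (0.0152), in the same order of groups. Herpud1 was rhythmic under arrhythmic feeding too: it peaked at ZT 11.77 with an amplitude of 0.72 (limma adjusted p = 4.61e-06), against 0.87 with a peak at ZT 11.31 in NF livers. No difference in its rhythm was called, which does not show that the rhythms were alike. Between LB and NF livers the rhythm differed for 2 members, Hspa5 (amplitude 0.19 in LB and 0.62 in NF livers, adjusted p = 0.00489) and Dnajb11 (0.0207), against 0.854% of all genes; the count was 0 or 1 without any 1 replicate number and 0 in the joint fit.

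In the daily mean, 12 members rose and 8 fell under AF against NF, where 44% of all genes were called. The largest difference was that of Txndc5, a disulfide isomerase, which had 10.51 to 41.4 RPM (median 24.7) in AF and 41.2 to 85.7 RPM (median 59.0) in NF livers. The arms overlapped at the edge, and the difference was -1.28 ± 0.14 on the log2(RPM + 0.5) scale (limma adjusted p = 9.56e-10; SE, 18 libraries in each arm), lower at all 6 times. Pdia3, the isomerase that works with calreticulin and calnexin, rose by 0.58 ± 0.07 (adjusted p = 1.03e-08), with 99.4 to 185 RPM in AF and 56.7 to 134 RPM in NF livers. Xbp1 rose by 0.41 ± 0.08 (limma adjusted p = 2e-05), to 112 RPM in AF against 84.6 RPM in NF livers. Night-fed AC livers, also uninjected, averaged 111.6 RPM of Xbp1, and night-fed WT livers with vehicle 97.7 RPM. Outside tunicamycin, Txndc5 had its highest arm mean in this NF arm. The Pdia3 range of AC livers, given below, overlapped that of AF livers widely. These differences thus hold against this NF arm and were not tested against the other night-fed arms. Hsp90b1, the ER form of the HSP90 chaperone, differed by 0.20 ± 0.07 (adjusted p = 0.0188), a call lost in the joint fit (0.219) and without replicate 2 (0.11, adjusted p = 0.355). Sdf2l1 differed by -0.47 ± 0.16 (adjusted p = 0.0131) and by -0.15 without replicate 3 (0.557). The daily means of Hspa5 (787 RPM in AF and 802 RPM in NF livers, adjusted p = 0.78), Herpud1 and Creld2 did not pass the test.

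In ad libitum against NF livers 14 members rose and 10 fell in daily mean, where 53% of all genes were called. The NF arm is the same as above, and other night-fed arms were again not tested against. Txndc5 fell by 1.44 on the log2 scale (limma adjusted p = 1.75e-11), with 9.21 to 38.4 RPM in LB and 41.2 to 85.7 RPM in NF livers, without overlap. Pdia3 rose by 0.87 (1.53e-13), to 177 RPM in LB against 97.9 in NF livers, and Sec61b, a subunit of the translocation channel, fell by 0.67 (3.14e-12). Calr rose by 0.49, Xbp1 by 0.56 and Pdia4 by 0.63, and Dnajb9 fell by 0.52, with adjusted p-values from 3.11e-08 to 1.52e-06. Hsp90b1 differed by 0.22 (0.00908), a call lost in the joint fit (0.159) and without replicate 2 (0.13, adjusted p = 0.251). Hspa5, at 782 RPM in LB and 802 RPM in NF livers, did not pass the test, nor did Sdf2l1, Creld2 or Herpud1.

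Without Bmal1, and with no injection, Calr and Sdf2l1 rose in daily mean and Hsp90b1, Dnajb9, Hspa5 and Herpud1 fell. With vehicle in both genotypes, described below, Herpud1 fell too, but Calr was not called higher. Sdf2l1, Hspa5 and Hsp90b1 did not pass the test with vehicle, where Hspa5 differed by 0.22 and Hsp90b1 by -0.05. In uninjected BMKO against WT livers 17 members rose and 13 fell, 30 of 38, in a comparison where 71.7% of all genes were called (34.3% higher and 37.4% lower), so the share called among the members was near that of all genes; under the deposited scaling and under DESeq2 size factors the split was 14 and 15. Calr had 365 to 1016 RPM (median 678) in BMKO and 176 to 382 RPM (median 290) in WT livers, which overlapped at the edge, a rise of 1.23 (limma adjusted p = 2.31e-16). Hsp90b1 had 136 to 373 RPM (median 217) in BMKO and 357 to 658 RPM (median 439) in WT livers, overlapping at the edge, and fell by 1.10 ± 0.15 on the log2 scale (1.33e-09). These 2 chaperones thus moved in opposite directions. Sdf2l1 rose by 1.01 ± 0.19 (3.8e-06), to 24.8 RPM in BMKO against 12.5 in WT livers. Dnajb9 fell by 1.30, Hspa5 by 0.48 and Herpud1 by 0.48, the last with an adjusted p of 0.00124, or of 0.056 without replicate 2. Xbp1 did not pass the test (0.179).

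Creld2 differed by 0.40 (limma adjusted p = 0.0313), a call lost under DESeq2 size factors (0.0789), under the deposited scaling (0.0769) and without replicate 1 or 2 (0.0607 and 0.213). Beside these values, hepatocyte markers summed to 40442 to 52340 RPM in BMKO and 65256 to 85440 RPM in WT livers, and Alb to 8433 to 20174 RPM and 44887 to 57213 RPM in the same order. Sinusoidal endothelial markers summed to 69.8 to 121 RPM in BMKO and 139 to 195 RPM in WT livers, and exocrine pancreas markers to 24.0 to 146 RPM and 9.53 to 41.3 RPM. Derl3 averaged 1.73 RPM in BMKO and 0.394 RPM in WT livers, with libraries at 0 in both. The part of these cell types in the result was not tested.

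In rhythm, 18 of 38 members were called in uninjected BMKO livers (5.6% of all genes), and 17 in BMKO livers with vehicle (5.49% of all genes). Without any 1 replicate number these counts were 2 to 14 and 0 to 22, and the joint fit gave 28 for the uninjected arm. Hspa5 had 840, 948 and 1222 RPM at ZT 18 and 313, 298 and 339 RPM at ZT 10 in BMKO livers, with every night value above every day one. It peaked at ZT 18.19 with an amplitude of 0.84 (limma adjusted p = 4.6e-05), and the fitted peak of Creld2 was 9.69 times its trough. The rhythm differed between genotypes for 1 member, Hspa13, in uninjected mice (3.05% of all genes), and for 5 in mice with vehicle (1.75% of all genes). Those 5 were Hspa13, Txndc11, Ssr1 and Sec23b, with a higher amplitude in BMKO, and Manf with a lower one. Both counts reached 0 without replicate 2 or 3, and the first was 3 without replicate 1.

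With vehicle injected in both genotypes, 2 members rose and 4 fell in daily mean in BMKO against WT. That was 6 of 38, a smaller share than that of all genes called (21.7%). Under the deposited scaling, which shifted the median of all genes by 0.31 on the log2 scale, the split was 24 and 1. Beside these values, hepatocyte markers summed to 29428 to 66363 RPM in BMKO and 64784 to 107377 RPM in WT livers with vehicle, and Alb averaged 17677 RPM and 49967 RPM in the same order; their part in the result was not tested. Herpud1 had 43.8 to 193 RPM (median 114) in BMKO and 126 to 699 RPM (median 208) in WT livers, overlapping, a difference of -1.06 ± 0.13 (limma adjusted p = 6.32e-10). Sec63, which couples BiP to the channel, rose by 0.39 (5.64e-06). Creld2 differed by 0.49 (0.0301), a call lost without replicate 1 (0.199) or 3 (0.0971), and Hspa5, Sdf2l1 and Xbp1 did not pass the test, though Hspa5 and Sdf2l1 rose by 0.56 and 0.72 under the deposited scaling (2.39e-05 and 0.00126). Hsp90b1 differed by -0.05 (0.854), but by 0.40 without replicate 1 (0.000839), the replicate in which it was under 0.25 times the median of the rest of its group at ZT 14 and 18 in BMKO livers with vehicle. The count was 11 without replicate 1 and 3 without replicate 3, and 10 without libraries under 3 M reads.

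Vehicle injection itself went with changes over all genes. In BMKO livers 10 members rose and 7 fell with vehicle against no injection, 17 of 38, a smaller share than that of all genes called (60.4%). Under the deposited scaling the split was 21 and 2, with the same shift of 0.31. Hspa5 had 447 to 3006 RPM (median 944) with vehicle and 298 to 1222 RPM (median 568) without injection, overlapping, a rise of 0.85 ± 0.12 (limma adjusted p = 1.94e-09), and Hsp90b1 rose by 1.03 (1.8e-08). Sdf2l1, Creld2, Herpud1 and Xbp1 did not pass the test in BMKO livers, though Creld2 and Xbp1 did under the deposited scaling (0.0225 and 0.000294), and Herpud1, which differed by -0.29, did with edgeR (0.0464) and in the joint fit (0.021). In WT livers 11 rose and 2 fell (27.3% of all genes), with 6 and 5 under the deposited scaling and 5 calls in all without replicate 2. Txndc5 fell by 1.12 (limma adjusted p = 8.9e-06), to 30.0 RPM with vehicle against 60.4 without injection, and Calr rose by 0.55 (0.000108). The uninjected arm is the night-fed control of the feeding comparisons, in which Txndc5 also had its highest mean. Hspa5, Hsp90b1, Sdf2l1, Creld2, Herpud1 and Xbp1 did not pass the test in WT livers. No member differed in rhythm in either genotype by limma or by edgeR; at an unadjusted p under 0.05 there were 4 in WT and 1 in BMKO, and 0% of all genes were called.

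Rapamycin lowered Sdf2l1 in both genotypes. In WT livers Sdf2l1 had 2.01 to 34.3 RPM (median 5.75) with rapamycin and 4.15 to 51.3 RPM (median 15.8) with vehicle. In BMKO livers it had 2.63 to 24.9 RPM (median 7.86) with rapamycin and 4.61 to 48.2 RPM (median 17.5) with vehicle. The ranges overlapped over the day, and at all 6 times the mean with rapamycin was lower in both genotypes. The differences were -1.07 ± 0.19 in WT (limma adjusted p = 3.17e-05) and -0.92 ± 0.19 in BMKO livers (0.000492). Among all members 4 rose and 6 fell in WT (18.5% of all genes), and 6 rose and 3 fell in BMKO livers (11.9% of all genes). The WT count was 4 without replicate 1 and 6 without replicate 2, and 18 in the joint fit; the BMKO count was 5 without replicate 1 or 3.

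In WT livers Hspa5 had 647 RPM with rapamycin and 898 with vehicle, a difference of -0.50 ± 0.12 (limma adjusted p = 0.0012), and of -0.26 without replicate 1 (0.0763). In that rapamycin arm, replicate 1 of ZT 18 had both Hspa5 and Sdf2l1 under 0.25 times the median of the rest of its group. Replicate 1 of ZT 22 in the same arm was the shallowest library, with 0.706 M reads. Hsp90b1 differed by -0.48 (0.0206), a call lost without replicate 1 (0.172) or 3 (0.0668), and Xbp1 by 0.44 (0.00421), lost without replicate 2 (0.284). P4hb, a disulfide isomerase, rose by 0.22 and Ern1 by 0.37. In BMKO livers Pdia4 rose by 0.81 (0.002), to 98.8 RPM with rapamycin against 57.1 with vehicle, and Derl2, a retrotranslocation factor, by 0.39 (0.000503). Syvn1, the ubiquitin ligase HRD1 of the degradation complex, had 21.8 RPM with rapamycin and 32.6 with vehicle, a difference of -1.10 (0.0198), with 5 of its rapamycin libraries under 0.25 times that median of their group. Hspa5, Hsp90b1, Creld2, Herpud1 and Xbp1 did not pass the test in BMKO livers, nor Creld2 and Herpud1 in WT livers; Herpud1 differed by 0.33 in BMKO and 0.31 in WT livers, which passed in the joint fit (0.031 and 0.0375).

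The response to rapamycin differed between genotypes for 14 of 38 members, more positive in BMKO for 8 and more negative for 6 (14.2% of all genes). Pdia4 responded by 0.81 in BMKO and by -0.19 in WT livers (limma adjusted p = 0.00781 for the difference), and Canx, the membrane lectin chaperone, by 0.26 and -0.25 in the same order (0.00175). edgeR called 9, of which 7 more positive in BMKO, and limma called 0 without replicate 1 and 9 without replicate 2; without replicate 1 the difference for Hsp90b1 was -0.035, against 0.68 with all libraries.

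Fewer members were called rhythmic with rapamycin than with vehicle. In WT livers 2 members were rhythmic with rapamycin (5.1% of all genes) and 16 with vehicle (14.9% of all genes). In BMKO livers limma and edgeR called 0 with rapamycin (0.274% of all genes; 10 at an unadjusted p under 0.05) and limma 17 with vehicle. Without any 1 replicate number the WT counts were 0 to 2 with rapamycin and 6 to 15 with vehicle; the joint fit gave 5 in both rapamycin arms. Herpud1 was one of the 2 in WT livers, peaking at ZT 11.58 with an amplitude of 0.95 (limma adjusted p = 0.000835). The test of the difference itself called little: in WT livers 0 members by limma and by edgeR (12 at an unadjusted p under 0.05; 0% of all genes), 1 in the joint fit, and in BMKO livers 1, Ssr1 (adjusted p = 0.0445; 0.322% of all genes), with 0 without any 1 replicate number. The rhythm response differed between genotypes for 0 members by limma and by edgeR, with 4 at an unadjusted p under 0.05 and 0% of all genes called.

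The bar chart of rhythmic shares sets all 16 arms side by side. AZD8055 at dusk had the highest count, 29 of 38, followed by TSKO with 25 of 38 and AZD8055 at dusk with tunicamycin with 25 of 39. In arms dosed at a fixed time of day, a passing response to the dose can also be called rhythmic by this fit.

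**Figure D2:**
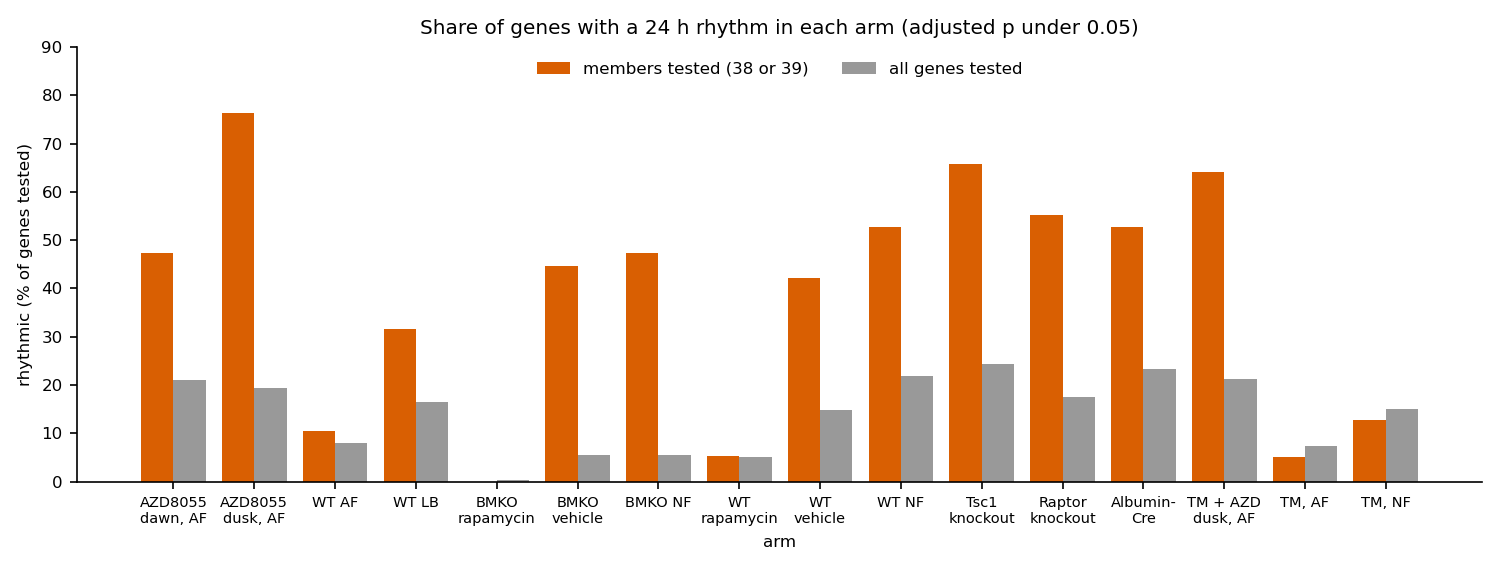
Share in percent of the members (38, or 39 under tunicamycin) and of all tested genes called rhythmic by limma in each of the 16 arms, as bars from 0. The members' bar stands far above that of all genes in both BMKO arms without rapamycin (18 and 17 members, against 5.6% and 5.49% of all genes) and stands at 0 in BMKO mice with rapamycin.

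In livers without Tsc1 the sensor genes Atf6 and Eif2ak3 rose. Atf6 had 34.9 to 56.7 RPM (median 47.4) in TSKO and 27.2 to 39.4 RPM (median 33.3) in AC livers, overlapping at the edge, a rise of 0.48 ± 0.06 (limma adjusted p = 4.64e-09). Eif2ak3 had 4.12 to 16.7 RPM (median 8.25) in TSKO and 1.91 to 7.82 RPM (median 5.15) in AC livers, a rise of 0.78 ± 0.13 (8.68e-06). Together 11 members rose and 4 fell, 15 of 38, so the share called was near that of all genes (36.6%). The count was 9 without replicate 1, 8 without replicate 3 and 9 in the joint fit. Canx rose by 0.28 (4.29e-06), P4hb fell by 0.25 (3e-05) and Derl2 fell by 0.26 (5.99e-05). Hspa5 had 483 to 2041 RPM (median 842) in TSKO and 432 to 1249 RPM (median 796) in AC livers. Its difference of 0.18 ± 0.07 (0.0356) lost its call without any 1 replicate number (adjusted p = 0.363, 0.0583 and 0.0692) and in the joint fit (0.181). Hsp90b1, Sdf2l1, Creld2, Herpud1 and Xbp1 did not pass the test.

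In livers without Raptor the disulfide isomerases Pdia3 and Pdia4 rose, under the TMM scaling used here. Pdia4 had 52.2 to 122 RPM (median 86.7) in RPKO and 29.5 to 82.7 RPM (median 50.2) in AC livers, overlapping, a rise of 0.68 ± 0.08 (limma adjusted p = 6.3e-10). Pdia3 had 147 to 318 RPM (median 206) in RPKO and 107 to 191 RPM (median 132) in AC livers, a rise of 0.56 ± 0.07 (3.84e-09), and Atf6 rose by 0.38 (3.08e-07). Sel1l, the adaptor of the degradation ligase, fell by 0.31 (2.16e-06) and Derl1 by 0.25 (2.27e-06). In all, 10 members rose and 6 fell, 16 of 38, where 42.5% of all genes were called (19.4% higher and 23.1% lower), so the share called was near that of all genes; under the deposited scaling, which shifted the median of all genes by -0.23, the split was 4 and 20. Hsp90b1 differed by 0.25 (0.00196), a call lost under the deposited scaling (0.01, adjusted p = 0.929), without replicate 3 (0.213) and in the joint fit (0.122). Hspa5, Sdf2l1, Creld2, Herpud1 and Xbp1 did not pass the test, though Herpud1 and Xbp1 differed by -0.41 and -0.36 under the deposited scaling (3.55e-05 and 0.00191). B and plasma cell markers, of a cell type rich in this machinery, summed to 17.7 to 64.6 RPM in RPKO and 8.01 to 38.1 RPM in AC livers, with 2 of 2 tested higher, and their part in the result was not tested.

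In rhythm, 25 of 38 members were called in TSKO (24.3% of all genes), 21 in RPKO (17.5%) and 20 in AC livers (23.3%). Peaks fell between ZT 18 and 24 for 21, 19 and 14 of them in the same order of arms, a window not counted over all genes. Called in both were 19 members of TSKO and AC livers (of 25 and 20) and 15 of RPKO and AC livers (of 21 and 20). Without any 1 replicate number the counts were 14 to 20, 10 to 16 and 9 to 15. No member differed in rhythm from AC livers by limma or by edgeR, with 4 at an unadjusted p under 0.05 in TSKO and 0 in RPKO, where 0.00815% and 0% of all genes were called; this does not show that the rhythms were alike.

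Outside tunicamycin, 24 of the 39 members had their highest arm mean after AZD8055, 19 after the dawn and 5 after the dusk dose. This was not counted over all genes, so it does not show a trait particular to the members. Herpud1 was among the other 15, with 323 RPM in WT livers with rapamycin. After the drug at dawn, Creld2 at ZT 10 had 227, 145 and 50.03 RPM, against 7.17, 9.95 and 3.86 RPM in AF mice without injection. Hspa5 at that time had 4507, 2910 and 1647 RPM, against 797, 867 and 624 RPM. Syvn1 had 388, 184 and 65.2 RPM, against 7.80, 22 and 8.53 RPM. All 3 drug values stood above all 3 others for each gene, and replicate 3 was the lowest after the drug. The differences at ZT 10 were 4.07 ± 0.35 for Creld2 (limma adjusted p = 3.5e-11), 1.88 ± 0.24 for Hspa5 (1.09e-07) and 3.82 ± 0.47 for Syvn1 (8.43e-08) on the log2 scale. Sdf2l1 rose by 3.03 ± 0.54, Manf by 2.62 ± 0.34, Hyou1 by 2.38 ± 0.23 and Dnajb9 by 1.68, with adjusted p-values from 3.45e-10 to 6.51e-05. Derl3, untested, had 16.9, 11.3 and 0.628 RPM at ZT 10 after the drug, against 0.252, 0.351 and 0.305 RPM.

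**Figure D3:**
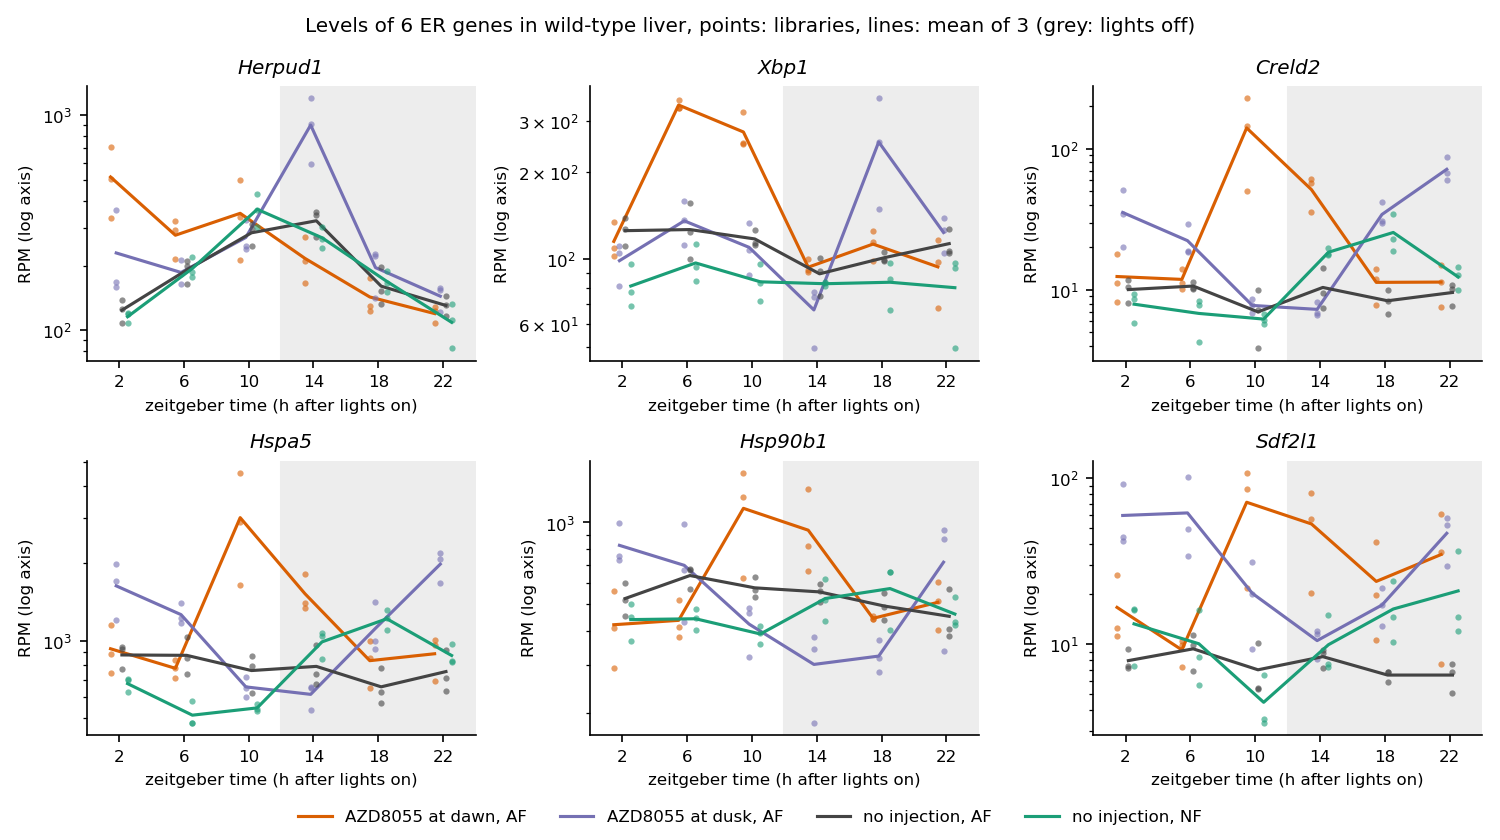
RPM (log axis) by zeitgeber time in hours of Herpud1, Xbp1, Creld2, Hspa5, Hsp90b1 and Sdf2l1 in arrhythmically fed mice given AZD8055 at dawn, given it at dusk or uninjected, and in night-fed mice uninjected; points are libraries and lines join the means of 3. Creld2 and Hspa5 stand highest at ZT 10 after dawn dosing and near ZT 22 after dusk dosing, where Hspa5 had 1682 to 2204 RPM, while Herpud1 stands highest at the first time after each dose.

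The rise came in steps. At ZT 2, the first time after the dawn dose, 2 members were higher (7.29% of all genes in either direction), Herpud1 and P4hb. Herpud1 then had 506, 707 and 332 RPM after the drug, against 108, 138 and 126 RPM without, and differed by 1.99 ± 0.27 (limma adjusted p = 2.86e-06), with no overlap. At ZT 6 1 member was higher and 1 lower, below the shares of all genes (8.75% higher and 7.38% lower). Xbp1 was the member higher, with 333, 356 and 335 RPM after the drug against 100, 124 and 157 RPM without (1.45 ± 0.21, limma adjusted p = 2.51e-06). Ssr1 was the member lower. At ZT 10 the count was 27 higher and 0 lower (23.2% of all genes in either direction), at ZT 14 15 and 0 (10.9%), at ZT 18 4 and 0 (2.06%) and at ZT 22 2 and 0 (1.27%). At 1 or more times 31 of 38 members were higher (21.4% of all genes); of these, 25 were first called at ZT 10, and Calr, Pdia4 and Ssr1 at ZT 14. The calls over the 6 times numbered 52, and 27 without replicate 1 or 30 without replicate 3.

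At ZT 14, the first time after the dusk dose, Herpud1 had 1191, 908 and 591 RPM after the drug against 273, 342 and 354 RPM without (1.43 ± 0.27, limma adjusted p = 0.00034). Herpud1 was the single member of 38 higher at that time, below the share of all genes higher (8.36%). Hsp90b1, Pdia3, Ssr1 and Canx, 4 members, were lower, near the share of all genes lower (8.58%). Hsp90b1 at ZT 14 had 184, 378 and 342 RPM after the drug against 596, 561 and 511 RPM without, with no overlap (-0.95 ± 0.31, 0.0287). At ZT 18 14 members were higher (10.3% of all genes) and 1, Canx, lower (8.58%). The 14 included Dnajb9 by 1.99 ± 0.30 (limma adjusted p = 8.27e-06), Txndc11 by 1.75 ± 0.21 (6.15e-08) and Xbp1 by 1.23 ± 0.21 (4.62e-05). Dnajb9 then had 88.2, 88.2 and 117 RPM after the drug against 24.6, 20.3 and 27.99 RPM without.

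The count was 20 and 0 at ZT 22 (19.7% of all genes), 16 and 0 at ZT 2 (12.2%), 11 and 0 at ZT 6 (5.49%) and 1, Edem1, and 0 at ZT 10 (2.43%). Creld2 at ZT 22 had 59.8, 87.6 and 67.4 RPM after the drug against 10.9, 10.2 and 7.67 RPM without, and differed by 2.83 ± 0.35 (limma adjusted p = 4.99e-07). Hspa5 at ZT 22 had 1682, 2204 and 2079 RPM after the drug against 918, 634 and 716 RPM without, and differed by 1.40 ± 0.24 (6.2e-05). The drug values lay above all the others for both genes. Calls over the 6 times numbered 68, and 36 to 40 without any 1 replicate number. At 1 or more times 28 of 38 members were higher (23.2% of all genes). The 10 not called higher at any time after the dusk dose were Atf6, Hsp90b1, Pdia4, Ssr3, Canx, Derl2, Ern1, Os9, Pdia3 and Sec63. Both doses were set against the same AF control arm and were not tested against each other.

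**Figure D4:**
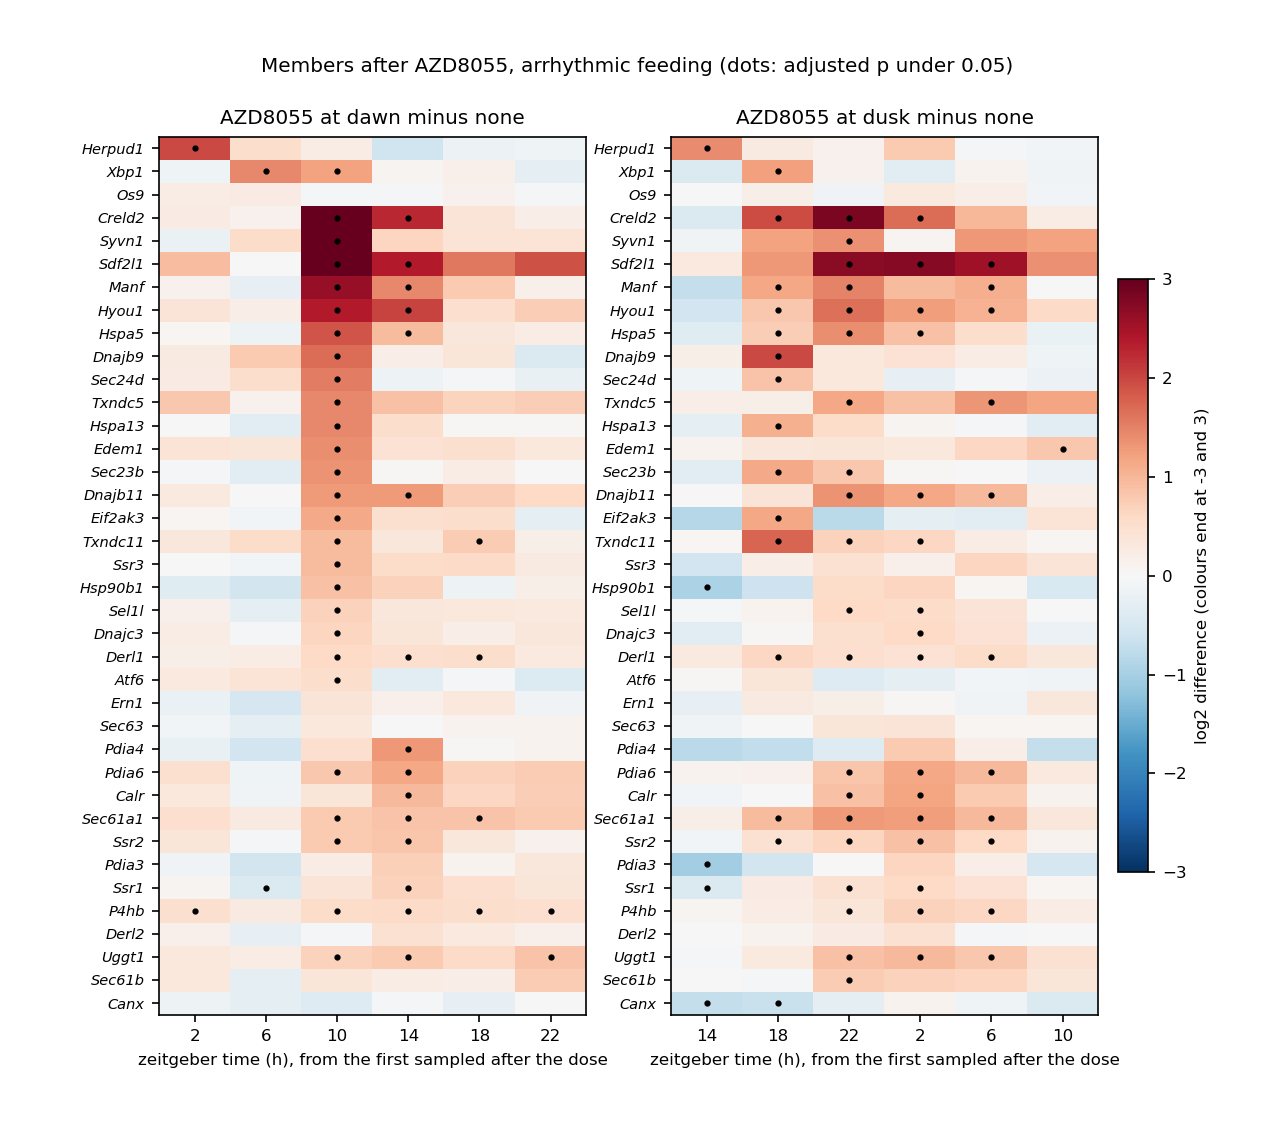
Log2 difference (AZD8055 minus no injection, arrhythmically fed mice) of each of 38 members at 6 zeitgeber times, after dawn dosing on the left and after dusk dosing on the right, where columns start at ZT 14; dots mark a limma adjusted p under 0.05 and colours end at a difference of 3 in either direction. Herpud1 is high in the first column of both panels, and most members are high near ZT 10 on the left and near ZT 22 on the right.

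In the daily mean 27 members rose and 1 fell after the dawn dose (41% of all genes called in either direction, 20.9% higher), with a median difference of 0.38 over the members and 0.01 over all genes. After the dusk dose 23 rose and 1 fell (50.8% of all genes, 26.8% higher), with medians of 0.38 and 0.02. Under the deposited scaling the splits were 30 and 0, and 29 and 1. By role, the dawn dose raised 4 of 6 chaperones, 6 of 6 cochaperones, 4 of 6 disulfide isomerases, 6 of 8 tested degradation factors, 5 of 6 translocation genes and 1 of 2 COPII genes. Of the 4 sensor and transcription factor genes it raised Xbp1. The dusk dose raised 3, 5, 4, 6, 4 and 1 in the same order of roles, and Xbp1, Atf6, Ern1 and Eif2ak3 did not pass the test.

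Sdf2l1 averaged 34.9 RPM after the dawn dose and 36.0 RPM after the dusk dose, against 7.65 RPM without injection, with differences of 1.64 ± 0.22 (limma adjusted p = 1.21e-07) and 1.82 ± 0.22 (7.57e-09). Hyou1 averaged 27.9 RPM after the dawn and 23.0 RPM after the dusk dose, against 11.6 RPM, with differences of 1.04 ± 0.09 (1.55e-11) and 0.80. Sec61a1, the pore of the translocation channel, averaged 454 and 498 RPM, against 278 RPM, and differed by 0.82 ± 0.09 after dusk dosing (1.46e-09). Xbp1 rose by 0.41 after the dawn dose (0.000175) and differed by 0.10 after the dusk dose (0.363). Canx was the member that fell after both doses, to 196 and 174 RPM against 220 RPM. Hsp90b1 differed by 0.11 (0.493) and -0.13 (0.395). The rise of Herpud1 after the dawn dose (0.31, 0.0246) lost its call without replicate 1 (0.335) or 2 (0.0838); after the dusk dose it rose by 0.42 (0.00183). Creld2 rose by 1.22 ± 0.14 and 1.21 ± 0.14, and Hspa5 by 0.55 ± 0.10 and 0.50 ± 0.10, in the order dawn and dusk.

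The drug also went with higher amplitudes than in uninjected AF livers, where few members were rhythmic. The dose came at a fixed time of day, so a passing response to it also fits a 24 h cosine. This test cannot tell such a response from a daily rhythm. After the dawn dose the rhythm differed for 14 members, all with a higher amplitude (14.7% of all genes called, 12.1% higher), and after the dusk dose for 22, all higher (5.73% of all genes, 4.9% higher). Without 1 replicate number these counts were 5 to 13 (5 without replicate 1) and 1 to 7 (1 without replicate 2). Creld2 had an amplitude of 1.58 after the dawn dose with a peak at ZT 11.38, and of 1.55 after the dusk dose with a peak at ZT 23.07, against 0.14 without injection (limma adjusted p = 3.37e-07 and 0.000113). Hspa5 peaked at ZT 11.29 after the dawn and at ZT 0.14 after the dusk dose. Xbp1, called rhythmic in no night-fed arm without a drug, had an amplitude of 0.92 and peaked at ZT 7.58 after the dawn dose, against 0.23 without (2.39e-05). After the dawn dose 18 members were called rhythmic, where 21% of all genes were, and 13 of the 18 peaked between ZT 6 and 12. After the dusk dose 29 were called, where 19.5% of all genes were, and 21 of the 29 peaked between ZT 0 and 6. Peak windows were not counted over all genes. Without 1 replicate number the counts of rhythmic members were 9 to 18 and 18 to 22.

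Markers of other cells moved in the same arms. The neutrophil markers S100a8 and S100a9, 2 of 2 tested, were higher after both doses, and their sum had a median of 3.88 RPM after the dawn dose (0.577 to 112) and 3.84 RPM after the dusk dose (0.807 to 127), against 1.55 RPM without injection (0.251 to 4.0). Kupffer cell markers summed to 150 to 341 RPM after the dawn and 144 to 347 RPM after the dusk dose, against 132 to 224 RPM, with 3 and 4 of 8 higher. Sinusoidal endothelial markers, 4 of 6 higher after each dose, summed to 140 to 179 RPM and 126 to 238 RPM, against 123 to 167 RPM. B and plasma cell markers, of another cell type rich in this machinery, summed to 3.63 to 15.7 RPM and 4.44 to 20.7 RPM, against 10.7 to 30.5 RPM, and Ighm fell by 2.03 and 1.46 on the log2 scale. No marker of these lists was at 0 in all libraries of an arm, and the part of these cells in the result was not tested.

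Other genes of the secretory pathway, from 8 lists of 122 genes, also rose after AZD8055, where 20.9% of all genes were higher after the dawn and 26.8% after the dusk dose, with 20.2% and 23.9% lower. The oligosaccharyltransferase and N-glycan precursor list had 14 of 21 tested genes higher and 0 lower after the dawn dose and 15 and 0 after the dusk dose, by limma. Ddost, a subunit of the oligosaccharyltransferase, averaged 36.6 RPM after the dawn and 40.5 RPM after the dusk dose, against 21.8 RPM (0.71 ± 0.08 and 0.85 ± 0.08; adjusted p = 2.62e-09 and 2.65e-11). In the list of glycan trimming and the calnexin cycle 5 of 7 were higher after each dose, led by the glucosidase Mogs (0.53 and 0.66), and 0 were lower. Of 19 further COPII and cargo genes 12 rose and 1 fell after the dawn dose and 13 rose and 2 fell after the dusk dose; the cargo receptor Surf4 rose by 0.47 and 0.50. Among 17 other folding enzymes 10 rose after each dose, with 1 and 2 lower, among them the prolyl isomerase Ppib (0.68 and 0.61). Of 18 genes for translocation, signal recognition and the signal peptidase 9 rose and 2 fell after the dawn dose and 10 rose and 1 fell after the dusk dose. Of 17 other degradation genes 8 rose and 3 fell after each dose.

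In the branch of PERK and the transcription factor CHOP, 4 of 8 tested genes rose after the dawn dose and 2 after the dusk dose, with 0 lower. Chac1, a glutathione-degrading enzyme induced in that branch, averaged 5.25 and 4.09 RPM after the dawn and dusk doses, against 0.887 RPM (1.21 ± 0.23 and 1.06 ± 0.23; limma adjusted p = 5.47e-05 and 0.000212). Ddit3, which encodes CHOP, did not pass the test after either dose (adjusted p = 0.144 and 0.0528). Among 11 ER membrane transcription factors and proteases 5 rose after the dawn and 4 after the dusk dose, and 1, Tmbim6, an ER membrane inhibitor of cell death, fell after both, by 0.37 and 0.49 on the log2 scale. Under arrhythmic against night feeding the lists moved in both directions: in the COPII list 4 rose and 7 fell, and in the translocon and signal recognition list 4 rose and 8 fell, of 19 and 18 tested, where 24% of all genes were higher and 20% lower.

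Tunicamycin levels were far above untreated ones. The tables were normalized separately, so levels are set side by side at the shared times, ZT 10 and 22, with no test. At ZT 22 in AF mice Hspa5 had 11211, 10541, 11511 and 10073 RPM with tunicamycin and 918, 634 and 716 RPM without, a ratio of 14.3 between means plus 0.5 RPM. Creld2 had 203 to 338 RPM with tunicamycin and 7.67 to 10.9 RPM without, a ratio of 28.2, and Herpud1 2948 to 3764 RPM and 116 to 144 RPM, a ratio of 25.3. Derl3 had the highest ratio, 150, with 99.8 to 148 RPM with tunicamycin and 0.111 to 0.538 RPM without. It reached a mean of 1 RPM only in the tunicamycin table, where it was high, so its place here rests on that filter. With so low an untreated level, the added 0.5 RPM sets much of its ratio. Xbp1 had a ratio of 1.80. Of 39 members, 35 in AF mice at ZT 10 and 34 at ZT 22 had all tunicamycin libraries above all untreated ones (22.9% and 21.5% of 12261 genes), and 36 and 34 in NF mice (22.8% and 23.4%). These counts include Derl3, and the 12261 genes are those with a mean of 1 RPM or more in the tunicamycin table. Sec61b in NF mice at ZT 10 was the single member with all tunicamycin libraries below the untreated ones (19.2% of all genes), at 75.4 to 84.6 RPM and 91.7 to 132 RPM.

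**Figure D5:**
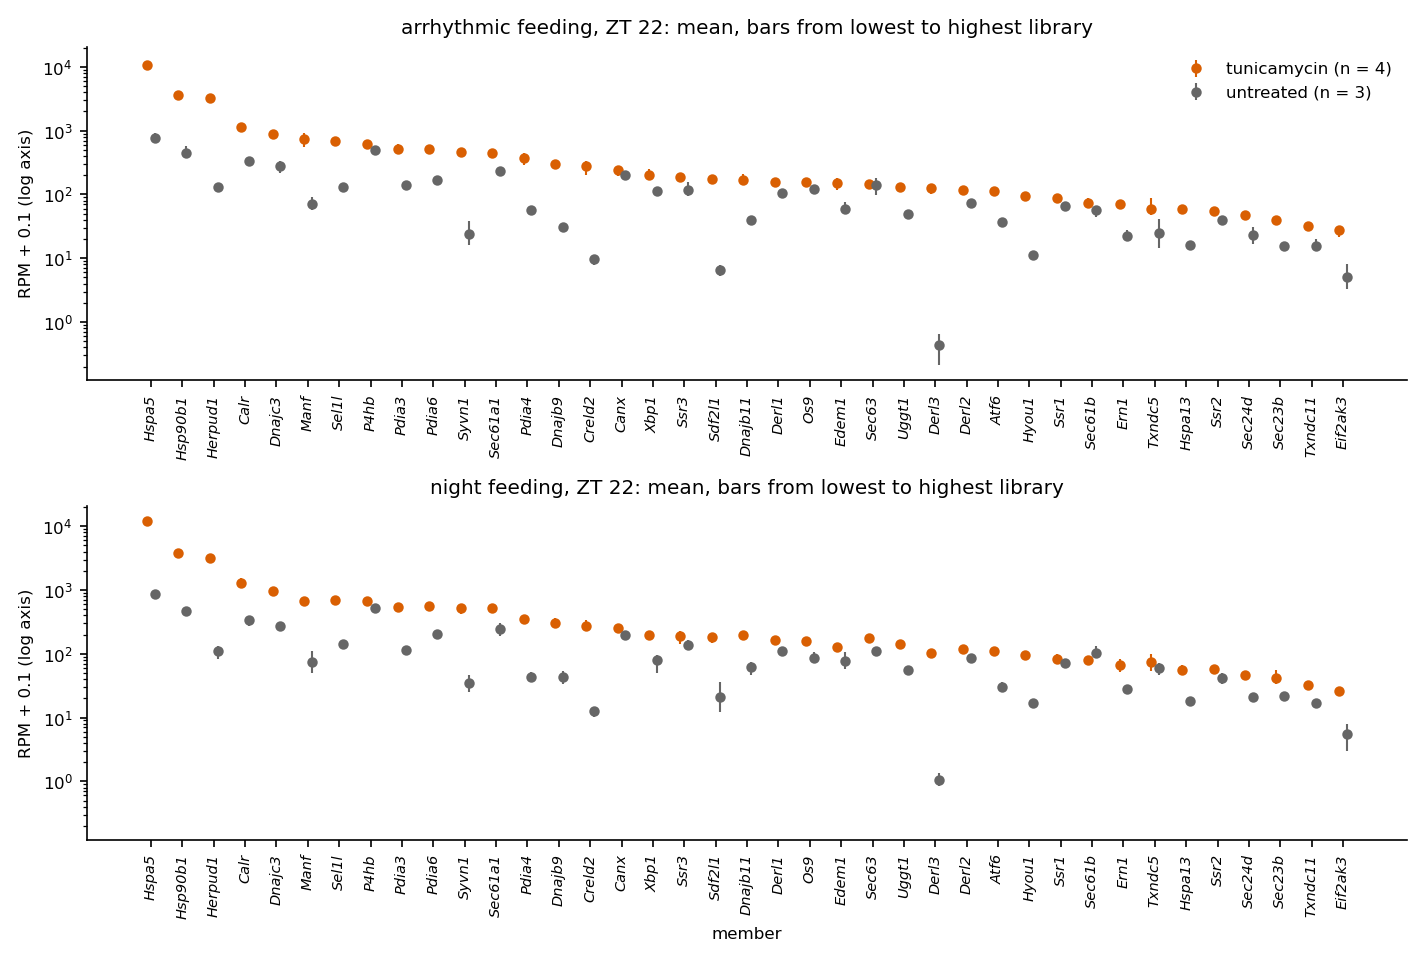
RPM plus 0.1 (log axis) of each of 39 members at ZT 22 with tunicamycin (4 libraries) and untreated (3 libraries), arrhythmically fed in the upper panel and night fed in the lower; points are means and bars run from the lowest to the highest library. Derl3, which reached a mean of 1 RPM only in the tunicamycin table, shows the widest gap in both panels. Xbp1, with a ratio of 1.80 in the upper panel, shows one of the narrower ones.

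Where AZD8055 had been given at dusk, the ratio to mice with AZD8055 alone was lower at ZT 22 than the ratio in AF mice without it for 32 of 39 members, and the level without tunicamycin was itself higher for 34. The ratio was not lower for Canx, Dnajb9, Pdia3, Pdia4, Os9, Atf6 and Eif2ak3. At ZT 10 the counts were 27 and 23. These are values set side by side, with no test. They were not counted over all genes, so they do not show a trait particular to the members. Hspa5 had 12567 RPM with tunicamycin and 1988 without (ratio 6.32), and Creld2 527 and 71.6 RPM (7.32). The median ratio over the 39 members was 2.34 at ZT 22 after AZD8055 at dusk, against 3.03 in AF mice without it, and 2.13 against 2.80 at ZT 10.

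Within the tunicamycin table the feeding arms did not separate in daily mean: limma and edgeR called 0 of 39 members between AF and NF (0.555% of all genes; 7 members at an unadjusted p under 0.05). The rhythm differed for 3, Sdf2l1, Derl2 and Edem1 (4.36% of all genes), and for 0 without replicate 2, 3 or 4. Between AZD8055 at dusk and none, both with tunicamycin and AF, 2 members rose (8.86% of all genes). Txndc11 had 33.7 to 48.6 RPM with AZD8055 and 26.8 to 45.9 RPM without, higher in mean at all 4 times (0.27 ± 0.06; limma adjusted p = 0.00498). Sec63 averaged 186 RPM with AZD8055 and 159 RPM without (0.23 ± 0.06, 0.0136). No member was called without replicate 3 and 1 without replicate 4. Without the NF library that stood apart, which was in no arm of this comparison but in the shared estimate of spread, Dnajb9, Txndc11 and Sec63 rose and Ern1 fell.

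Hspa5 averaged 10541 RPM with AZD8055 and 10820 RPM without, both with tunicamycin, and did not pass the test (-0.05, limma adjusted p = 0.789); nor did Hsp90b1, Sdf2l1, Creld2, Herpud1 or Xbp1. At single times limma called 0 members at ZT 4, 10 and 16 (0.383%, 0.628% and 1.9% of all genes) and 1 at ZT 22 (1.89%). That was Creld2, with 436, 440, 613 and 620 RPM with AZD8055 against 271, 324, 338 and 203 RPM without, and no overlap (0.90 ± 0.23, adjusted p = 0.0253). Without the library that stood apart 9 members were called at ZT 22; over the 4 times edgeR called 2, and limma 0 without replicate 1, 3 or 4 and 3 without replicate 2. The neutrophil markers, 2 of 2, were higher with AZD8055 under tunicamycin too, with a summed median of 7.98 RPM against 3.21 RPM without, and their part was not tested.

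Rhythms under tunicamycin were called for 25 of 39 members with AZD8055 at dusk (21.2% of all genes), 2 in AF mice (7.49%) and 5 in NF mice (15%). In the NF arm the count was 11 without the library that stood apart and 0 to 8 without any 1 replicate number, in the AF arm 0 without replicate 2, 3 or 4, and in the AZD8055 arm 7 to 21. Of the 25, 22 peaked between ZT 18 and 24, a window not counted over all genes. The difference in rhythm between AZD8055 and none was called for 0 members by limma and by edgeR, with 8 at an unadjusted p under 0.05 and 0.0326% of all genes, and for 1 without the library that stood apart.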

How the data were processed

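Livers of 282 mice, as labelled, were measured with the Lexogen QuantSeq 3' mRNA-Seq kit for forward reads, on RNA extracted with TRIzol. Reads were aligned to mm10 (GRCm38.p6) with STAR 2.7.3a and handled with SAMtools, per the submitters' processing notes. How reads were counted, on which strand and annotation, and how they were scaled is not stated in these sources. The authors deposited a signal per gene with decimals. Each library's values were multiples of 1 step, which returned whole reads, within 0.01 read, for all values of 264 libraries and for at least 98.8% in the RPKO arm, where 197 genes, none a member, lay off the step and did not enter fits with RPKO.

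RPM was computed from the recovered reads after TMM rescaling. limma 3.58.1 in R 4.3.3, with a mean-variance trend, was run on log2(RPM + 0.5), which makes differences at low levels smaller. A gene was tested where its mean reached 1 RPM, 12412 in the first table (12266 in fits with RPKO) and 12261 in the tunicamycin table, with 1 mean per arm and time and a Benjamini and Hochberg threshold of 0.05 over all of them. A daily mean weights times equally; a rhythm is tested on a cosine and a sine of 24 h together, fitted in the arm alone; a rhythm difference compares these contrasts between arms of 1 experiment. Tables were checked on simulated data: for the daily mean of AF against NF, 82% of changes of 1.5-fold and 100% of 2-fold were recovered, and for the rhythm difference 12.1% at an amplitude of 0.5 and 85.9% at 1, over 12339 genes. The simulated libraries were independent, had the same relative spread for every gene and held no library that stood apart. The shares recovered in the real libraries may therefore be lower. Depth and the 3 or 4 libraries per time limit the precision.

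The members and the lists of pathway and marker genes were chosen with earlier results of these data known. The text names any of the 39 members, in each comparison Hspa5, Hsp90b1, Sdf2l1, Creld2, Herpud1 and Xbp1, those with the smallest adjusted p (up to 6) or largest difference (up to 4), and up to 3 called genes per pathway list with the smallest adjusted p; Ddit3 and Ighm were added after their values were seen. Alternatives were DESeq2 size factors, the deposited scaling, no filter, a pseudocount of 2, edgeR 4.0.16 on the recovered reads, a block for the replicate number, 1 joint fit per table, leaving out each replicate number and leaving out libraries under 3 M reads; leaving out 2 ad libitum libraries and 1 tunicamycin library was chosen after seeing the data. By GENCODE vM21, exons of 3 members overlap another gene on the same strand (Hsp90b1, Manf and Pdia4) and those of 13 one on the other strand, so their reads may be shared.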

Additional observations from a re-analysis of the deposited data

Results flagged for a closer look

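Of 72 groups of 4 tunicamycin libraries screened for Hspa5, Hsp90b1, Sdf2l1, Creld2, Herpud1 and Xbp1, 5 held a library far from the other 3, where chance alone gives about 1 in 20 groups. Hspa5 in replicate 1 of ZT 4 with AZD8055 at dusk had 8176 RPM, below the others, and Xbp1 in replicate 1 of ZT 10 in that arm 110 RPM, also below. Sdf2l1 in replicate 4 of ZT 22 in that arm had 348 RPM, above the others. Hsp90b1 had 2615 RPM in replicate 4 of ZT 4 in AF mice, and Herpud1 3390 RPM in replicate 3 of ZT 4 in NF mice.

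The daily mean response to rapamycin (BMKO minus WT) differed between genotypes by limma for 14 of 38 members, where 14.2% of all genes were called. edgeR called 9, and limma 0 without replicate 1. It was more positive in BMKO for Pdia4 (1.002), Pdia3 (0.69), Hsp90b1 (0.68, but -0.035 without replicate 1), Dnajc3 (0.56), Canx (0.50), Hspa13 (0.42), Sec63 (0.33) and Ssr1 (0.23). It was more negative for Syvn1 (-1.90), Txndc5 (-0.88), Manf (-0.56), Edem1 (-0.38), Ssr2 (-0.34) and P4hb (-0.30). Adjusted p-values ran from 0.00175 for Canx to 0.0487 for Manf.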

How the results depend on the processing

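Counts of members called are given below as the value under the alternative, with the reported count in parentheses; the cause of each move was not tested. Under DESeq2 size factors the uninjected BMKO rhythm difference had 0 (1) and the tunicamycin single times with AZD8055 2 (1); under the deposited scaling these were 0 and 2, and the vehicle BMKO daily mean 25 (6). Without a filter the uninjected BMKO rhythm difference and the rhythm response to rapamycin in BMKO had 0 (1 each) and the rhythmic members of AF with tunicamycin 0 (2). With edgeR the genotype difference in rapamycin response had 9 (14) and the tunicamycin single times 2 (1). On the recovered reads edgeR called 5349 genes for the daily mean of AF against NF, against 5461 with limma. In the joint fit the rhythm difference of AF against NF had 10 (19), that of LB against NF 0 (2), that of uninjected BMKO 4 (1) and the WT rapamycin rhythm response 1 (0); the WT rapamycin daily mean had 18 (10) and TSKO 9 (15). Rhythmic members in the joint fit were 28 (18) in BMKO, 5 (2) in WT and 5 (0) in BMKO with rapamycin, 4 (12) in LB, and under tunicamycin 12 (5) in NF, 0 (2) in AF and 16 (25) with AZD8055. Without libraries under 3 M reads the uninjected BMKO rhythm difference had 2 (1) and the vehicle BMKO daily mean 10 (6). Without 1 NF tunicamycin library AZD8055 under tunicamycin had 4 (2) for the daily mean, 1 (0) for rhythm and 9 (1) for single times, and NF with tunicamycin 11 (5) rhythmic. A pseudocount of 2 and leaving out 2 ad libitum libraries moved no count of members by over 1.5 times.

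Leaving out each replicate number in turn, the count of members ran from 1 to 17 (19) for the rhythm difference of AF against NF, 0 to 1 (2) for LB against NF, 0 to 3 (1) for uninjected and 0 to 4 (5) for vehicle BMKO, 0 to 0 (1) for rapamycin in BMKO, 5 to 13 (14) for AZD8055 at dawn, 1 to 7 (22) at dusk and 0 to 2 (3) for AF against NF under tunicamycin. For the daily mean it ran from 3 to 11 (6) for vehicle BMKO, 4 to 9 (10) and 5 to 6 (9) for rapamycin in WT and BMKO, 5 to 12 (13) for vehicle in WT, 0 to 10 (14) for the genotype difference in rapamycin response, 8 to 11 (15) for TSKO and 0 to 3 (2) for AZD8055 under tunicamycin. For single times it ran from 27 to 54 (52) after dawn, 36 to 40 (68) after dusk and 0 to 3 (1) under tunicamycin. Rhythmic members ran from 11 to 13 (20) in NF, 1 to 3 (4) in AF, 1 to 11 (12) in LB, 2 to 14 (18) in BMKO, 6 to 15 (16) and 0 to 22 (17) in WT and BMKO with vehicle, 0 to 2 (2) and 0 to 1 (0) in WT and BMKO with rapamycin, 9 to 15 (20) in AC, 14 to 20 (25) in TSKO, 10 to 16 (21) in RPKO, 9 to 18 (18) and 18 to 22 (29) after AZD8055 at dawn and dusk, and under tunicamycin 0 to 8 (5) in NF, 0 to 2 (2) in AF and 7 to 21 (25) with AZD8055. The log2 difference of Hsp90b1, which changed sign without replicate 1, ran from -0.33 to 0.40 (-0.05) in BMKO against WT with vehicle and from -0.035 to 1.09 (0.68) in the genotype difference in rapamycin response.

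Same-numbered libraries had correlations of residuals from -0.46 to 0.55, with medians from -0.0020 to 0.0443 over 5 sets of arms. Correlations over 0.1 were found for 77 of 270, 18 of 54, 17 of 54, 7 of 54 and 9 of 48 pairs, so the numbers were not taken to pair mice, as not every pair passed. With the replicate block the tunicamycin single times had 4 (1), BMKO with rapamycin 1 (0) rhythmic and AF with tunicamycin 1 (2). Fewer libraries and shallow depth lower what can be called, most of all for amplitudes under 1.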
